A study of Mus musculus with 7 samples.

Results

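A set of 10 enzymes of muscle energy supply, chosen by name (Ckm, Ak1, Gys1, Pygm, Phka1, Pfkm, Aldoa, Pgam2, Eno3 and Ldha), were described across 7 RNA sequencing libraries. All 10 were found among the 56854 gene identifiers that the count tables of both genotypes have in common, and all 10 passed the filter on low counts. Their Ensembl identifiers and chromosomes are ENSMUSG00000030399 on chromosome 7 (Ckm), ENSMUSG00000026817 on 2 (Ak1), ENSMUSG00000003865 on 7 (Gys1), ENSMUSG00000032648 on 19 (Pygm), ENSMUSG00000034055 on X (Phka1), ENSMUSG00000033065 on 15 (Pfkm), ENSMUSG00000030695 on 7 (Aldoa), ENSMUSG00000020475 on 11 (Pgam2), ENSMUSG00000060600 on 11 (Eno3) and ENSMUSG00000063229 on 7 (Ldha). Each library came from the whole shoulder joint of 1 mouse, 2 weeks after surgical repair of the left supraspinatus tendon, a tendon of the rotator cuff. The mice were wild type (WT, n = 3) or Tnc-/- (n = 4), which lack tenascin C, a glycoprotein of the extracellular matrix; both groups had the operation, and their age, strain and sex, and how the deletion was made, are not given in the sources used here. The tissue holds tendon, muscle, bone, cartilage, marrow and fat together, and in such bulk RNA fewer muscle fibres cannot be told apart from less RNA per fibre.

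Skeletal muscle buffers ATP with phosphocreatine, which creatine kinase uses to recharge ADP within moments of contraction, and then burns glycogen and glucose through glycolysis. Several steps of this route are run by isoforms made mostly in muscle fibres, such as Ckm, Pgam2, Eno3, Pygm and Pfkm, while other tissues use sister genes for the same reaction. Fast-twitch fibres, which rely on glycolysis most, hold the highest amounts of these enzymes.

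Gene counts per library were 13.5 to 18.5 M in WT and 19.3 to 28.2 M in Tnc-/- (M, 1000000 reads). The label check gave Tnc at 437, 292 and 327 CPM (counts per 1000000 reads, scaled by TMM) in WT and at 33.4, 38.9, 39.9 and 54.97 CPM in Tnc-/- (edgeR, adjusted p = 2.8e-04); reads thus remained on the gene in every Tnc-/- library. Counts of the 2 genotypes came from different counting runs, so run and genotype cannot be told apart. WT libraries 2 and 3 stood apart from the other 5: the summed level of 1775 smell and pheromone receptor genes, which a joint is not known to use, was 1301 and 920 CPM there, against 85.6 CPM in WT library 1 and 36.0 to 43.5 CPM in Tnc-/-. The genotype tests, relative levels and isoform shares are therefore also given without both of these libraries.

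All 10 enzymes had a fitted log2 fold change above 0 (higher in Tnc-/-), as did 49.9% of all genes, and 0 of 10 passed the test across all genes (edgeR's quasi-likelihood test, Benjamini-Hochberg adjusted p from 0.0617 for Ak1 to 0.330 for Phka1). Their log2 fold changes ran from 0.24 to 0.60 with a median of 0.47, where the median of all 17791 genes tested was -9.0e-04. At an unadjusted p under 0.05 there were 4 members with edgeR (Ak1, Pgam2, Eno3 and Pfkm) and 7 with DESeq2, where 42.3% and 43.6% of all genes were. Across all genes 29.0% passed, 10.3% higher and 18.7% lower in Tnc-/-. In 3 of the 10 enzymes every Tnc-/- library lay above every WT library, a pattern found in 17.7% of all genes.

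The phosphagen and nucleotide enzymes come first in the supply of ATP. Ckm, the creatine kinase of the muscle fibre, was at 1956, 1580 and 1202 CPM in WT libraries 1 to 3 and at 1837, 2937, 2261 and 1926 CPM in Tnc-/- libraries 1 to 4. WT library 1 lay above Tnc-/- libraries 1 and 4, so the groups overlapped. The fitted difference was 0.50 on the log2 scale, with an SE of 0.25 and a 95% interval from -0.055 to 1.06 (edgeR, adjusted p = 0.153). Ak1, the cytosolic adenylate kinase that turns 2 molecules of ADP into ATP and AMP, was at 504, 429 and 332 CPM in WT and at 510.4, 803, 642 and 608 CPM in Tnc-/-. Its groups did not overlap, but only 510.4 against 504 CPM separated them. The Ak1 difference had the largest fitted value of the 10, 0.60 (SE 0.21; edgeR, adjusted p = 0.0617).

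The glycogen enzymes come next. Pygm, the muscle glycogen phosphorylase that releases glucose units from glycogen, was at 1634, 1289 and 1244 CPM in WT and at 1532, 2353, 2009 and 1754 CPM in Tnc-/-. Again WT library 1 reached into the Tnc-/- range, and its fitted log2 difference was 0.46 (SE 0.21; edgeR, adjusted p = 0.129). Gys1, the glycogen synthase that builds the polymer, was at 208, 186 and 175 CPM in WT and at 207, 312, 227 and 233 CPM in Tnc-/-. Tnc-/- library 2 was the high value for Gys1, and Tnc-/- library 1 lay just below WT library 1 (0.37, SE 0.17; edgeR, adjusted p = 0.136). Phka1, the regulatory alpha subunit of the kinase that switches phosphorylase on, was at 137, 96.7 and 108 CPM in WT and at 112, 155, 148 and 123 CPM in Tnc-/-. Its difference was the smallest of the 10, 0.24 (SE 0.17; edgeR, adjusted p = 0.330), with an interval from -0.16 to 0.63.

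The glycolytic enzymes follow in the order of their steps. Pfkm, the phosphofructokinase subunit of muscle at the committed step of glycolysis, was at 1127, 891 and 765 CPM in WT and at 1070, 1558, 1280 and 1255 CPM in Tnc-/- (log2 fold change 0.48, SE 0.21; edgeR, adjusted p = 0.112). Only WT library 1 overlapped the Tnc-/- range, lying above Tnc-/- library 1. Aldoa, the aldolase that splits fructose 1,6-bisphosphate, was the most abundant member, at 4897, 3994 and 3428 CPM in WT and at 4694, 6363, 5302 and 5132 CPM in Tnc-/-. Its groups overlapped in the same way (0.39, SE 0.21; edgeR, adjusted p = 0.201).

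Pgam2, the muscle phosphoglycerate mutase, was at 403, 418 and 297 CPM in WT and at 435, 693, 531 and 512 CPM in Tnc-/-. All 4 Tnc-/- libraries lay above all 3 WT libraries, and the log2 fold change of 0.54 (SE 0.21) had an adjusted p of 0.0787 (edgeR). Eno3, the muscle enolase of the following step, was at 1523, 1407 and 1008 CPM in WT and at 1536, 2385, 1906 and 1762 CPM in Tnc-/-. The groups were separate for Eno3 too, by the gap between 1523 and 1536 CPM (0.53, SE 0.23; edgeR, adjusted p = 0.108). Ldha, which turns pyruvate into lactate and regenerates NAD+, was at 1205, 1016 and 946 CPM in WT and at 1135, 1430, 1237 and 1241 CPM in Tnc-/-. Here WT library 1 lay between Tnc-/- libraries 1 and 3, and the difference was 0.26 (SE 0.17; edgeR, adjusted p = 0.289) with an interval from -0.13 to 0.65.

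**Figure D1:**
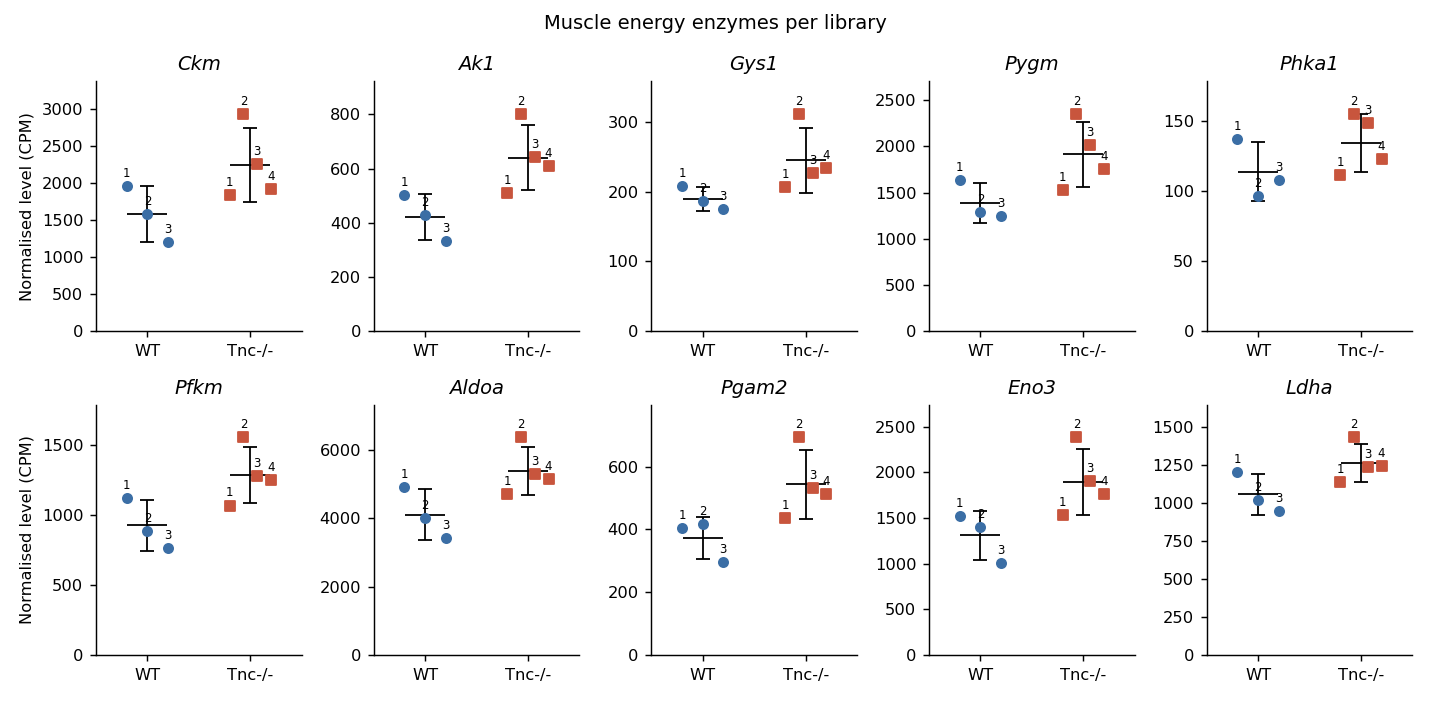
Normalised level (CPM, vertical axis from 0) of each enzyme in WT (circles) and Tnc-/- (squares) libraries, with the library number above each point and the group mean and SD as bar and whiskers (n = 3 and 4). Tnc-/- library 2 is the highest point in all 10 panels, WT library 3 is the lowest in 9, and WT library 1 lies close to or within the Tnc-/- range.

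The same libraries were high and low for nearly every enzyme. Tnc-/- library 2 was the highest of the 7 in 10 of 10 enzymes, against 9.88% of all genes. WT library 3 was the lowest in 9 of 10, the exception being Phka1, lowest in WT library 2. The share of all genes lowest in WT library 3 was not counted. WT libraries 2 and 3 lay below all 4 Tnc-/- libraries in 10 of 10 enzymes, against 32.1% of all genes. The coefficient of variation within a genotype ran from 8.90 to 23.9% in WT and from 9.78 to 22.3% in Tnc-/-.

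The outcome of the test turned on which WT libraries were kept. Leaving out WT library 1 leaves only WT libraries 2 and 3, those with the high receptor gene levels, as the WT group. Without WT library 1, 10 of 10 enzymes passed (log2 fold changes from 0.455 to 0.845; edgeR, adjusted p from 0.00228 to 0.0319), in a fit in which 64.2% of all genes passed and 24.3% were higher. Without WT libraries 2 and 3 together, which leaves WT library 1 to be compared with the 4 Tnc-/- libraries on the assumption that it varies as they do, 0 of 10 passed. The log2 fold changes then ran from -0.036 for Phka1 to 0.42 for Pgam2 (median 0.21; edgeR, adjusted p from 0.331 to 0.931), and 4.45% of all genes passed. Leaving out Tnc-/- library 2 gave a median of 0.34. With the receptor gene level as a covariate beside genotype, 0 of 10 passed (2.24% of all genes), with a median of 0.115 and values below 0 for Ldha and Phka1. That level was lower in every Tnc-/- library than in every WT library. This fit therefore cannot fully separate it from genotype, here or in the lists below. The SE of Ckm was 0.372 with the covariate, against 0.246 without it. DESeq2 on all 7 libraries passed 5 of 10, namely Pgam2, Eno3, Pygm, Pfkm and Ak1, with adjusted p from 0.0173 to 0.0495, where it passed 35.1% of all genes, 12.3% as higher. Limma voom passed 0 of 10 and 5.47% of all genes. Without WT library 1 and Tnc-/- library 2, the highest for every enzyme, 10 of 10 passed, against 61.2% of all genes, 22% as higher. The WT group was again libraries 2 and 3 only. Scaling by library totals lowered the median of all genes to -0.24, and the 10 enzymes then ran from 0.0038 to 0.37 with 0 of 10 past the threshold and 30.9% of all genes past it.

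Per kilobase of exon, which allows genes to be compared with each other, the order of mean levels in WT was Aldoa (1411 CPM per kb), Eno3 (755), Ckm (542), Pgam2 (444), Pygm (432), Ldha (319), Pfkm (278), Ak1 (163), Gys1 (39.6) and Phka1 (18.2). In Tnc-/- the order was the same except that Pfkm (386 CPM per kb) and Ldha (381) changed places. The neighbours Pgam2 and Pygm in WT, and Ckm and Pgam2, Pgam2 and Pygm, and Pfkm and Ldha in Tnc-/-, differed by less than the SD of either gene. Ckm and Pgam2, and Ldha and Pfkm, in WT differed by less than the larger of their SDs, and the other neighbours by more than both. The glycogen synthase and the kinase subunit thus sat at the bottom of the order, below every glycolytic enzyme of the list. Exon lengths came from GENCODE M21, in which exons of other genes share 451 exon bases with Ckm, 359 with Pfkm, 310 with Gys1, 25 with Aldoa and 0 with the other 6. The symbol Aldoa stood on 2 identifiers, the one not used having 0 counts. Of the exon bases of Aldoa, 50.6% lay within the span of another gene. Reads on shared bases may be split or set aside.

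Promoter sequences are printed for 4 of the fibre isoforms that varied together across the libraries, to show the bases before their start sites. They are the 250 bases upstream of the start site in RefSeq, build GRCm38.p6, 5′ to 3′ on the gene's own strand; each of these 4 genes had 1 window in the table. Capitals mark matches to the E-box (CANNTG, bound by MyoD-type factors) and to the MEF2 motif.
Ckm, chr7:19410844-19411093, + strand: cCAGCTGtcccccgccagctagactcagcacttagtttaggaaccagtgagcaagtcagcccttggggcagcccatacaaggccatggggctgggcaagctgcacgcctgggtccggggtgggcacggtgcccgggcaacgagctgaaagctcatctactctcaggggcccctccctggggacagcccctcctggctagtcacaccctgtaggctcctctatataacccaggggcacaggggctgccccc
Pgam2, chr11:5803797-5804046, - strand: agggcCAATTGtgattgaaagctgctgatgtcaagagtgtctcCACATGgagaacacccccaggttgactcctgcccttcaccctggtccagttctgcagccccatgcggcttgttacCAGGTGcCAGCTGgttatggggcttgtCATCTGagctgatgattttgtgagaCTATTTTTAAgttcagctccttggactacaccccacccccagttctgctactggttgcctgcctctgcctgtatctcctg
Eno3, chr11:70656926-70657175, + strand: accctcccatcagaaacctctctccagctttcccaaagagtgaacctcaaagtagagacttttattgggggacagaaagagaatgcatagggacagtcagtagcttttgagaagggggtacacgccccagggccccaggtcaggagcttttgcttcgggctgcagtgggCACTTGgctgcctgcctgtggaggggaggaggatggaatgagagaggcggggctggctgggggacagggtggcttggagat
Pygm, chr19:6384158-6384407, + strand: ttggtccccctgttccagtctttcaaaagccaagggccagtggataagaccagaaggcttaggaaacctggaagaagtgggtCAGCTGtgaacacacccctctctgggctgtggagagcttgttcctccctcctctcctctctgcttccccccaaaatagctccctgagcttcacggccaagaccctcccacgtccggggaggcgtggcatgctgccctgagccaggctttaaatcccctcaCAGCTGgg
Pgam2 had 5 E-box matches and 1 MEF2 match, Pygm had 2 E-box matches, and Ckm and Eno3 had 1 each.

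Over the 19 start-site windows of the 10 genes, 18 held an E-box on either strand, against 66.2% of 32851 windows of all genes, and every gene had at least 1 window with it. A pair of Aldoa windows and a pair of Pfkm windows overlap, so their shared bases are counted more than once. The MEF2 motif was in 1 of 19 windows, that of Pgam2, against 2.92% of all windows. The letters ACGTG or GCGTG, the core of the element bound by hypoxia-inducible factors, were in 13 of 19 windows (8 of 10 genes) against 38.6% of all windows, and can overlap an E-box. TATAAA was in 0 of 19 (12.4% of all) and the CArG motif in 0 of 19 (1.47% of all). These are matches of letters in windows of equal length, and describe no binding. The shares of all are per window and not per gene, and a gene with more windows has more chances to match.

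Whether the enzymes differed beyond muscle transcripts as a whole was asked by setting each one against 25 genes of muscle structure in the same library. These genes encode the contractile filaments, the Z-disc and the calcium handling of the fibre. Their summed level was 56900, 42410 and 39690 CPM in WT and 56480, 86600, 65270 and 60450 CPM in Tnc-/-, with the same high and low libraries as the enzymes. Fitted values were above 0 for 25 of 25, with a median of 0.55. Of the 25, 5 rose past the threshold (Myh4, and, named after their values were seen, Mybpc2, Actn3, Cacna1s and Tcap), against 10.3% of all genes. With library totals 2 rose (median 0.31), and with upper-quartile scaling 2 (median 0.49). The count was 20 without WT library 1, where 24.3% of all genes rose. It was 1 or 2 without any other single library of either genotype and 0 with the receptor covariate. Without WT libraries 2 and 3 together the median was 0.23. Myh4, the myosin of the fastest fibres, rose from 3881 ± 579 CPM (SD, n = 3) to 8775 ± 1238 CPM (SD, n = 4). Its fitted difference was 1.18 on the log2 scale (SE 0.22; edgeR, adjusted p = 0.00856). Without WT libraries 2 and 3 it was 0.95 (edgeR, adjusted p = 0.114). Acta1, the actin of skeletal muscle, was at 0.23 (adjusted p = 0.522), Atp2a1, the calcium pump of fast fibres, at 0.49 (0.141) and Tpm1, a tropomyosin, at 0.51 (0.134).

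Relative to the mean of these 25 genes, 9 of the 10 enzymes had a mean difference below 0 on the log2 scale, and none stood higher in every Tnc-/- library. Ckm differed by -0.037, Pgam2 by -0.0067, Eno3 by -0.0097, Pfkm by -0.063, Pygm by -0.091 and Ak1 by 0.060 (exact two-sided permutation tests, p from 0.286 to 0.971, not adjusted over the 10 enzymes). For Ckm the relative level was 0.65, 0.79 and 0.495 in WT and 0.60, 0.61, 0.70 and 0.53 in Tnc-/-, so the groups lay over each other. The SD of Ckm over the 7 libraries was 0.40 in log2 CPM and 0.10 after the muscle level was subtracted. Over the 10 enzymes the first ran from 0.198 to 0.41 and the second from 0.087 to 0.215; it was not smaller for Ldha (0.198 and 0.201), and Phka1 had 0.252 and 0.215. Leaving out single libraries turned the sign for Ckm, Pgam2 and Eno3, with values between -0.11 and 0.144 over the 3.

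For Ldha and Aldoa the groups did not overlap. The share of all genes with such a pattern on this scale was not counted. The relative level of Ldha was -0.049, 0.157 and 0.149 in WT and -0.098, -0.43, -0.17 and -0.104 in Tnc-/-. Every Tnc-/- library was lower, with a mean difference of -0.29 (exact permutation test, two-sided p = 0.0571, the smallest that 3 against 4 libraries allow). Aldoa was at 1.97, 2.13 and 2.01 in WT and at 1.95, 1.72, 1.93 and 1.94 in Tnc-/-, a mean difference of -0.15 with the same p. Phka1 (-0.30, exact permutation p = 0.114) and Gys1 (-0.19, p = 0.171) were lower on average with overlapping groups; no test compared the members with each other. With the list summed, its median taken or a pseudocount of 0.5, Phka1 reached the exact permutation p of 0.0571 as well, as did Gys1 and Pfkm (-0.19) with the median. For Aldoa it was 0.114 when Tnnc2, or Myh4 and Acta1, were left out of the list. Against WT library 1 alone, the 4 Tnc-/- libraries were all lower for Ldha (mean difference -0.152), Aldoa (-0.087) and Phka1 (-0.255), all higher for Pgam2 (0.196), Eno3 (0.086) and Ak1 (0.115), and on both sides for the other 4 (exact permutation p of 0.4 or more, 0.4 being the smallest possible). Ldha and Aldoa are also made outside muscle; what other cell types contributed to them was not tested. With libraries scaled by the 25 genes in the fit across all genes, 0 of 10 enzymes passed (edgeR, adjusted p from 0.222 for Phka1 to 0.975 for Eno3), while 30.8% of all genes did, 29.8% lower; the median of all genes shifted to -0.53. In that fit Ldha was at -0.27 with a 95% interval from -0.64 to 0.096, and Ckm at -0.032 with an interval from -0.395 to 0.33.

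**Figure D2:**
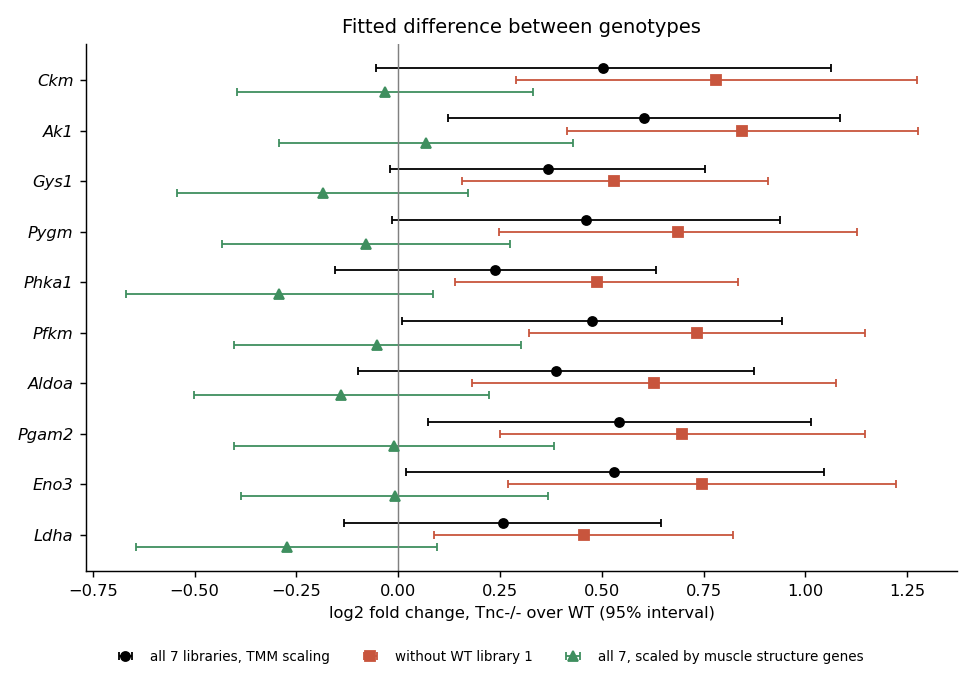
Fitted log2 fold change of each enzyme (horizontal axis, Tnc-/- over WT, with its 95% interval) in all 7 libraries (black circles), without WT library 1 (red squares) and with all 7 libraries scaled by the muscle structure genes (green triangles). The squares lie above 0 with their intervals in all 10 rows, and the triangles have intervals that span 0 in all 10.

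**Figure D3:**
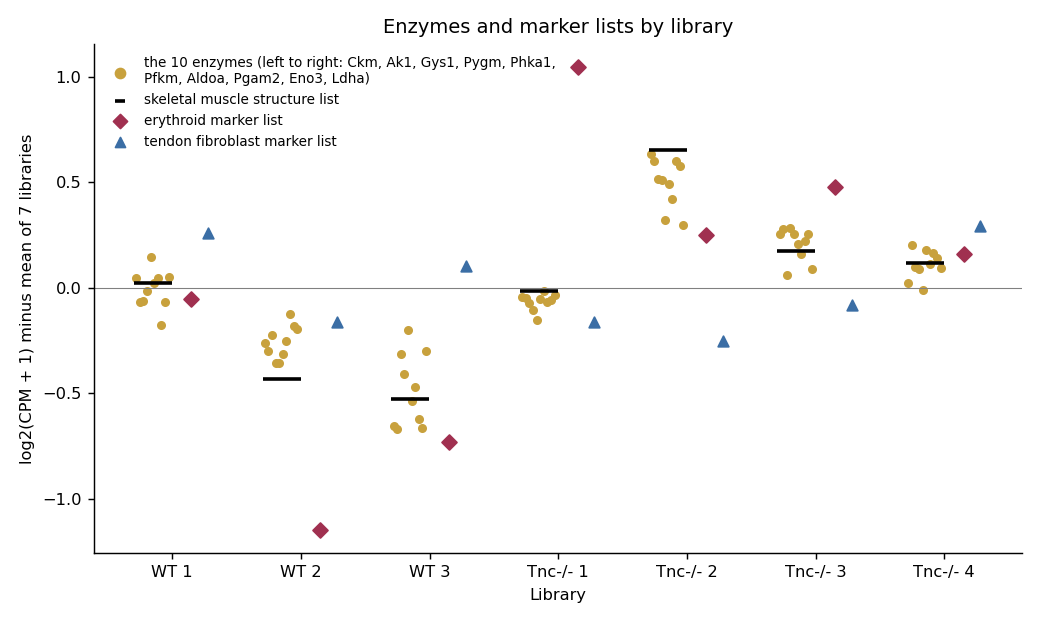
Level of each enzyme (gold points) and of 3 gene lists in each library, as log2(CPM + 1) minus its mean over the 7 libraries (vertical axis). The enzymes lie around the black bar of the muscle structure list in each library and are highest in Tnc-/- library 2, whereas erythroid markers are highest in Tnc-/- library 1 and tendon fibroblast markers in Tnc-/- library 4.

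Sister genes of the same reactions gave a second view, because most of them are made chiefly outside muscle fibres. The share of each listed isoform in the length-scaled counts of its family was compared for 8 of the 10 enzymes. The listed isoform held most of its family in every library, from 73.9% (Phka1 in WT library 2) to 99.7% (Gys1 in WT library 1). For Ckm against Ckb, the creatine kinase of brain and other tissues, the share was 88.6, 89.0 and 87.1% in WT and 90.9, 94.5, 92.6 and 89.3% in Tnc-/-. All 4 Tnc-/- libraries lay above all 3 WT libraries, by 3.59 percentage points on average (exact permutation test, two-sided p = 0.0571, the smallest possible, not adjusted over the 8 families; 3.26 points against WT library 1 alone, with all 4 above it). Ckb itself was at 251, 193 and 177 CPM in WT and at 182, 169, 181 and 229 CPM in Tnc-/-, with a log2 fold change of -0.12 (edgeR, adjusted p = 0.624).

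In the other 7 families the groups overlapped and the exact permutation p ran from 0.286 to 0.971. Ldha held 78.7, 82.8 and 83.3% of the counts shared with Ldhb, the heart-type lactate dehydrogenase, in WT and 82.7, 78.5, 81.2 and 84.6% in Tnc-/-. Pgam2 held 93.0 ± 1.60% in WT and 93.5 ± 1.62% in Tnc-/- against Pgam1, and Eno3 90.0 ± 1.74% and 90.9 ± 1.71% against Eno1 and Eno2 (SD, n = 3 and 4). For Pygm (against Pygl and Pygb) the shares were 94.7 to 95.4% and 93.2 to 96.4%, and for Pfkm (against Pfkl and Pfkp) the means were 97.1 and 96.8%. Gys1 held 98.2 and 99.0% against Gys2, and Phka1 76.3 and 79.0% against Phka2.

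Of 14 sister genes described, 2 rose and 1 fell past the threshold, where 10.3% of all genes rose and 18.7% fell. The 14 had a median log2 fold change of 0.16 (-0.069 with library totals). With scaling by the muscle genes 0 rose and 1 fell (median -0.355), with Pygl at 0.42 (edgeR, adjusted p = 0.2145) and Pfkl at 0.40 (0.229), and with the receptor covariate none passed. Pygl, the phosphorylase of liver and white cells, rose from 68.8 ± 17.5 to 128 ± 21.9 CPM (0.90, SE 0.20; edgeR, adjusted p = 0.0135), and lost its call without WT library 3. Pfkl, the liver-type phosphofructokinase, rose from 29.4 ± 9.46 to 54.5 ± 4.24 CPM (0.89, SE 0.22; adjusted p = 0.0184). Ak4, an adenylate kinase of the mitochondrial matrix, fell from 17.8 ± 4.28 to 8.55 ± 2.63 CPM (-1.06, SE 0.30; adjusted p = 0.0312). Pfkl lost its call without Tnc-/- library 3 or 4, and Ak4 in 5 of 7 such fits (every library but WT 1 and Tnc-/- 4). The 11 others did not pass the test. Over the 14 genes 6 rose and 1 fell without WT library 1, where 64.2% of all genes passed, 24.3% as higher. Of the same 14, 2 rose and 0 fell without WT library 2, and 1 rose and 0 fell without WT library 3. Without both, the log2 fold changes were 0.525 for Pygl, 0.51 for Pfkl and -0.61 for Ak4.

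Marrow markers are given beside the sister genes because Pygl is also made in white cells. The 11 erythroid markers measured summed to 4942 to 9581 CPM in WT and 13640 to 26750 CPM in Tnc-/-, with Alas2 at 0 counts in all 7 libraries, and 6 of 10 tested rose (median 1.23), Hbb-bs and Hba-a1, both globins, being the most abundant. The 12 neutrophil and marrow myeloid markers summed to 3365 to 6832 CPM in WT and 7316 to 12270 CPM in Tnc-/-; 7 of 12 rose (median 1.06), and the most abundant were S100a9, which rose, and S100a8, which did not pass, both calcium-binding proteins of neutrophils. Without WT library 1, 10 of 10 erythroid and 11 of 12 myeloid markers passed, against 64.2% of all genes, 24.3% as higher (29.0% and 10.3% with all 7 libraries). The erythroid count was 1 without WT library 2, 0 without WT library 3 and 3 without Tnc-/- library 1 or 3. The myeloid count was 1 without WT library 2 or 3 or Tnc-/- library 1 or 3, and 3 without Tnc-/- library 4. Without WT libraries 2 and 3 together, 0 of either list passed, with medians of 0.74 (erythroid) and 0.51 (myeloid). With the receptor covariate 0 of either passed (0.45 and 0.23), and with scaling by the muscle genes 1 of each did (0.78 and 0.65). Their part in the result was not tested.

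**Figure D4:**
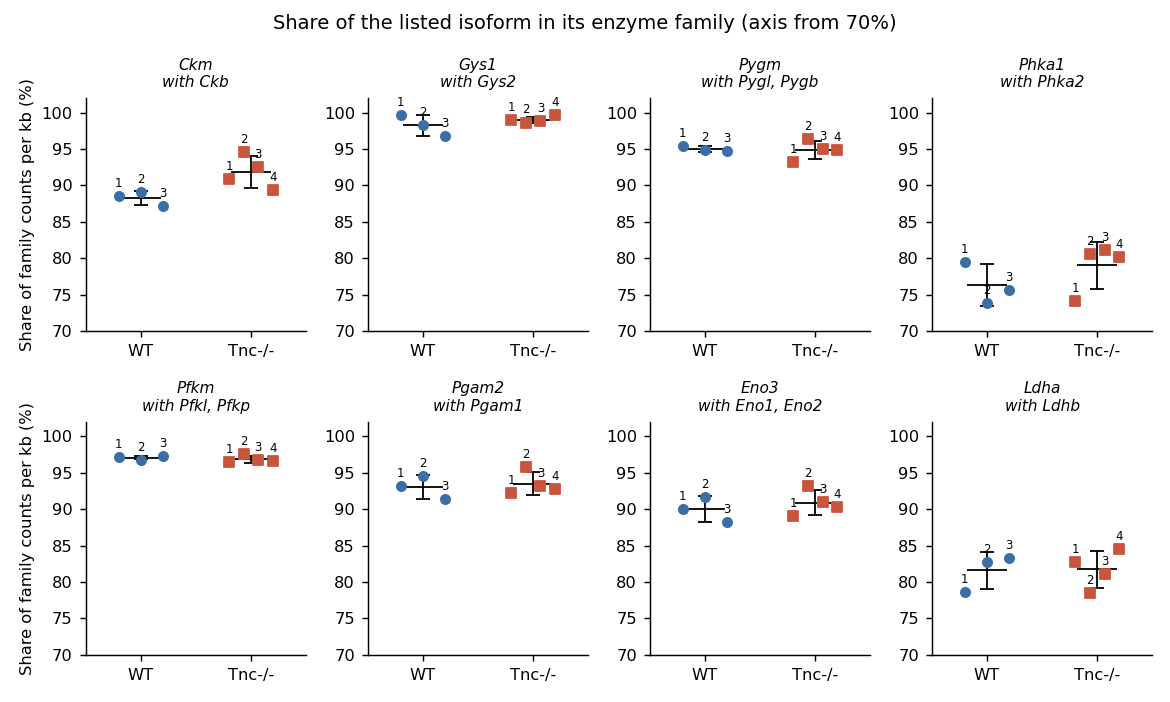
Share of each listed enzyme in the counts per kilobase of its family (vertical axis in percent, starting at 70%) in WT (circles) and Tnc-/- (squares) libraries, numbered, with mean and SD. Only the Ckm panel shows all squares above all circles, at 89.3 to 94.5% against 87.1 to 89.0%.

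Around the 10 enzymes, the rest of the pathway was read from 3 lists, beside 10.3% of all genes higher and 18.7% lower. Of 18 other genes of glycolysis and of glucose and lactate transport, 6 rose and 0 fell (median 0.48). With library totals 2 of 18 passed (median 0.25), with the receptor covariate 0, and with scaling by the muscle genes 0 (median -0.058). Pfkfb4, which makes the activator of phosphofructokinase, rose from 32.7 ± 7.64 to 65.5 ± 7.56 CPM (log2 fold change 1.0, SE 0.18; edgeR, adjusted p = 0.00786). Slc16a3, the exporter of lactate, rose from 77.2 ± 3.90 to 127 ± 16.7 CPM (0.72, SE 0.14; adjusted p = 0.00858). Both kept their calls when any 1 library was left out, with adjusted p up to 0.0402; without WT libraries 2 and 3 together Slc16a3 kept it (edgeR, adjusted p = 0.044) and Pfkfb4 did not (0.0611). Neither passed with scaling by the muscle genes, where Pfkfb4 was at 0.52 (edgeR, adjusted p = 0.118) and Slc16a3 at 0.18 (0.591). Hk1, a hexokinase of most tissues including red cells, rose by 0.63 (SE 0.14; adjusted p = 0.0132) and lost its call without WT library 3. Gpi1, the isomerase of the second step, rose by 0.60 (SE 0.18; adjusted p = 0.0351) and kept its call only without WT library 1. Without WT library 1 the count of this list was 15 of 18, against 24.3% of all genes higher. Without library 2 or 3 it was 3 or 2, and without both the median was 0.29.

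Of 16 tested genes of glycogen metabolism, 1 rose and 0 fell (median 0.23). With library totals 0 rose and 2 fell (median -0.00998), with scaling by the muscle genes 0 rose and 6 fell (median -0.30), and none passed with the receptor covariate (median -0.157) or without WT libraries 2 and 3 (median -0.070). It was Ppp1r3c, which brings protein phosphatase 1 to glycogen, from 32.3 ± 1.62 to 51.0 ± 12.2 CPM (0.66, SE 0.19; edgeR, adjusted p = 0.0317), and it kept its call in 2 of 7 fits without 1 library (WT 1 or Tnc-/- 4). Without WT library 1, 6 of 16 rose, against 24.3% of all genes. Of 13 tested genes of phosphagen and nucleotide supply and fuel choice, 2 rose and 1 fell (median 0.265), against 0 and 2 with scaling by the muscle genes (median -0.27). With library totals 1 rose and 1 fell (median 0.026), and with the receptor covariate none passed (median -0.013). Ampd3, an AMP deaminase abundant in red cells, rose by 1.376 (SE 0.365; adjusted p = 0.0241). Pdk4, a kinase that inhibits pyruvate dehydrogenase, rose by 1.11 (SE 0.36, edgeR, adjusted p = 0.0465) with overlapping groups. Ckmt1, a mitochondrial creatine kinase, fell (edgeR, adjusted p = 0.00908): it had 16, 91 and 108 counts in WT libraries 1 to 3 and 0, 2, 3 and 0 in Tnc-/-, its WT level thus lying mostly in the libraries with high receptor gene counts. Ampd3 kept its call in 2 of 7 fits without 1 library (WT 1 or Tnc-/- 4) and Pdk4 in 3 of 7 (WT 1, WT 3 or Tnc-/- 4). Without WT libraries 2 and 3 together, Ckmt1, Ampd3, Pdk4 and Ppp1r3c did not pass, with adjusted p (edgeR) from 0.0913 to 0.145. Their log2 fold changes were then -3.625 for Ckmt1, 1.375 for Pdk4, 0.74 for Ppp1r3c and 0.72 for Ampd3. The value of Ampd3 was thus smaller than with all libraries, and those of Pdk4 and Ppp1r3c were not. For Ckmt1 the fits without 1 library gave -6.832 to -5.518. Without WT library 1, 7 of these 13 genes rose and 1 fell, where 64.2% of all genes passed, 24.3% as higher.

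Of the hypoxia-response genes, which share regulators with several glycolysis genes, 1 of 9 rose and 0 fell (median -0.019), where 10.3% of all genes rose. With library totals 1 rose and 1 fell (median -0.27), and with scaling by the muscle genes 0 rose and 3 fell (median -0.59). That gene, named after its value was seen, was Vegfa, the endothelial growth factor, at 92.6 ± 12.5 CPM in WT and 176 ± 21.2 CPM in Tnc-/- (0.93, SE 0.15; edgeR, adjusted p = 0.00711), with a call in all 7 fits that left out 1 library and none without WT libraries 2 and 3 (0.0510), with scaling by the muscle genes (0.39; 0.115) or with the receptor covariate (0.72; 0.156). Adm was at 0 counts in all 7 libraries.

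Other tissues of the joint were read from marker lists, beside 10.3% of all genes higher and 18.7% lower. Tendon fibroblast markers summed to 34480 to 54350 CPM in WT and 36930 to 63420 CPM in Tnc-/-, led by Col1a2 and Col1a1, collagens of tendon and bone; 0 of 11 rose and 2 fell (median 0.0071; Mkx and Lum, named after their values were seen). Scx, a defining tendon gene, was at 0 counts in all 7 libraries, while Tnmd, another tendon marker, had 32943 counts over all libraries. Whether the 0 counts of Scx, Alas2, Col10a1, Acp5 and Adm reflect the tissue or the counting was not tested. Adipocyte markers, led by Lpl and Fabp4, summed to 1056 to 1274 CPM and 1210 to 2044 CPM, with 2 of 10 higher (median 0.41; Plin4 and Adipoq, named in the same way). Cartilage and bone markers, led by Col2a1 and Ctsk, summed to 1871 to 3015 CPM and 1925 to 3713 CPM, with 1 of 9 higher (median -0.12; Bglap, named after its value was seen), and Col10a1 and Acp5 were at 0 counts throughout. The muscle structure list had counts for all 25 genes, and Tnnc2, a fast troponin, had 0 to 42 counts per library. Of the passing genes in these 3 lists, Plin4 kept its call in all 7 fits without 1 library, Adipoq and Bglap in 2, and Mkx and Lum in 1; none passed without WT libraries 2 and 3 or with the receptor covariate. With library totals the tendon list had 0 higher and 3 lower (median -0.229), adipocytes 1 and 0 (0.137), and cartilage and bone 0 and 1 (-0.348). With scaling by the muscle genes these were 0 and 3 (-0.479), 1 and 0 (-0.197), and 0 and 2 (-0.588).

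**Figure D5:**
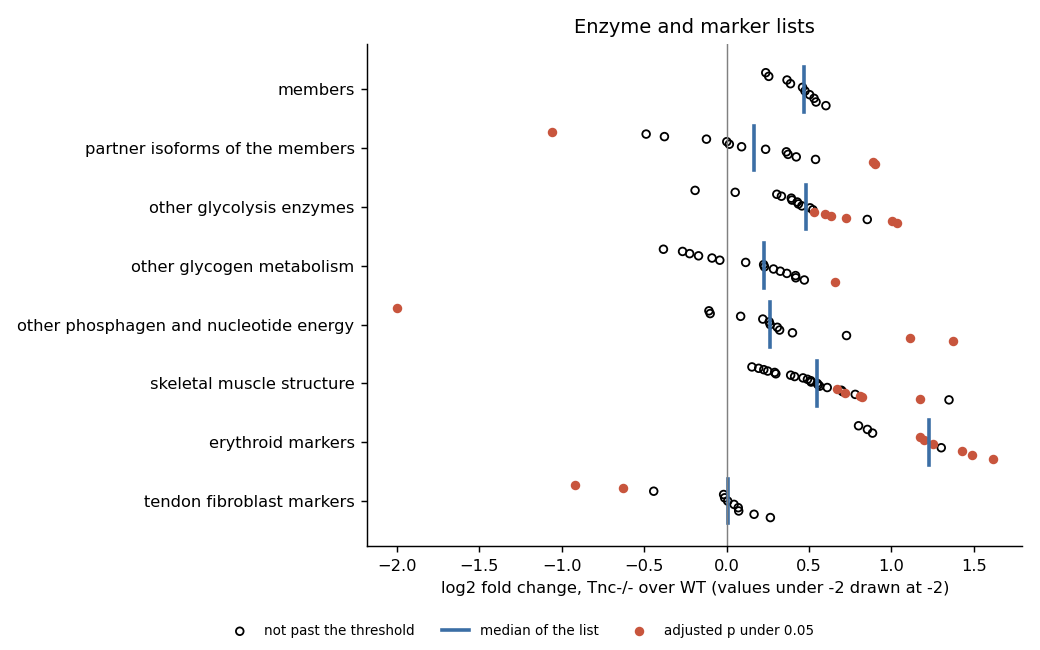
Log2 fold change (horizontal axis, Tnc-/- over WT) of every tested gene in 8 gene lists, with genes past the threshold filled in red and the median of each list as a blue bar. The 10 enzymes form a narrow group from 0.24 to 0.60 with no filled point, and their median (0.47) lies between those of muscle structure (0.55) and of sister genes (0.16); Ckmt1 is drawn at the left edge.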

How the data were processed

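RNA of 7 shoulder joints was sequenced after poly(A) selection with a NEBNext Ultra kit, per the labels' protocols. The deposited values are raw counts per gene, 1 file per library. The submitters' processing notes name FastQC 0.11.9, HISAT2 2.2.1, HTSeq 2.0.2 and DESeq2 1.38.3 with GRCm39; the annotation and strand setting are not given in the sources used here. WT files list 56980 identifiers without symbols, Tnc-/- files 56941 with symbols plus 5 summary rows, which held 30.1 to 32.7% of the reads listed and were left out. No column was left unmapped (0 columns).

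Identifiers in all files (56854) entered a genome-wide fit, by edgeR 4.0.16 under R 4.3.3 (filterByExpr, TMM, robust dispersions, quasi-likelihood F test, Benjamini-Hochberg threshold 0.05; method tested on simulated data). CPM are counts per 1000000 of TMM-scaled library size. SE is the fold change over the square root of F. For single values, exact permutation tests (two-sided, 35 arrangements) were run, unadjusted, for 10 relative levels and 8 isoform shares; the smallest possible p is 0.0571. Relative levels are log2(CPM + 1) minus the mean over the muscle list. Alternatives used DESeq2 1.42.0, limma 3.58.1, other scalings, filters, a receptor covariate, a replicate block and left-out libraries.

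The 10 enzymes and all other lists, drawn from textbook knowledge, were chosen with earlier results of these data known. Named outside them are sister genes (some, and the isoform shares that need them, are not reported here), up to 4 passing genes of each pathway list (smallest p), 4 muscle and 2 marker genes per list (highest mean CPM) and Tnc. Gene symbols are those of the Tnc-/- files, with 4 taken from the reference names; lengths came from GENCODE M21 (GRCm38), which is not the build of the counts. The series design gives 7 mice for the 7 libraries. Protein sequences were not used here.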

Additional observations from a re-analysis of the deposited data

Results flagged for a closer look

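Each of 40 values was screened for a single Tnc-/- library lying far outside the rest with Dixon's test, in which 1 in 20 passes by chance, and 2 did. Aldoa relative to the muscle structure genes was at 1.72 on the log2 scale in Tnc-/- library 2, against 1.93 to 1.95 elsewhere, with a gap of 0.930 of the whole range. The share of Phka1 in the counts of Phka1 and Phka2 was 74.2% in Tnc-/- library 1, against 80.2 to 81.2% elsewhere, with a gap of 0.852 of the range. Reads that the deposited Tnc-/- files list as ambiguous between genes, which enter no comparison, made up 11.5% of the reads listed on average.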

How the results depend on the processing

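The settings that leave out a pair of libraries, and the muscle list without Tnnc2 or without Myh4 and Acta1, were chosen after seeing the data. Over single left-out libraries, genes past the threshold ranged from 2229 to 14113 (main count 5159) and enzymes past it from 0 to 10, the 10 being without WT library 1. Genes numbered 1653 with DESeq2 and Bonferroni adjustment, 973 with limma voom, 399 with the receptor covariate, 825 without WT libraries 2 and 3, and 13354 without WT library 1 and Tnc-/- library 2, where 10 enzymes passed; DESeq2 passed 5. Bonferroni-adjusted DESeq2 and limma voom passed 0 enzymes, as did every other filter and scaling tried.
With the replicate block 1932 genes and 0 enzymes passed; no label says that equal numbers share anything, and deviations of same-numbered libraries correlated at 0.0022, 0.103 and -0.0029 (across 18423 genes). Calls split differently by setting: 64.5% of them were lower in Tnc-/- as reported, 82.7% with library totals, 72.5% with upper-quartile scaling, 96.6% scaled by muscle genes, 27.3% with limma voom.
Scaled by muscle genes, values fell below 0 for Ckm (-0.032), Pgam2 (-0.0105), Eno3 (-0.0087), Pygm (-0.080), Pfkm (-0.052), Aldoa (-0.14), Ldha (-0.27), Gys1 (-0.19) and Phka1 (-0.29), as this scaling sets the muscle list near 0; with the receptor covariate Ldha was at -0.012 and Phka1 at -0.17, and without WT libraries 2 and 3 Phka1 at -0.036, where the cause was not tested.
Relative to muscle, signs turned for Pgam2 (0.0029 by summed CPM, 0.0064 without Myh4 and Acta1), Eno3 (0.0035 without Myh4 and Acta1) and Ak1 (-0.067 by the median). Left-out libraries gave -0.113 to 0.037 for Ckm, -0.108 to 0.144 for Pgam2 and -0.082 to 0.111 for Eno3; no sign turned for the other 7. Isoform shares not divided by length turned for Pfkm (0.148 points). Left-out libraries gave shares of -0.37 to 1.23 points for Pgam2, -0.645 to 0.405 for Pygm and -1.32 to 1.22 for Ldha. Without WT libraries 2 and 3, relative levels turned for Pgam2 (0.196), Eno3 (0.0863) and Gys1 (0.0031) and shares for Gys1 (-0.667 points) and Phka1 (-0.442). Depth does not limit these enzymes, whose lowest count was 1455; intervals cover spread between libraries.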
